A study of Mus musculus with 14 samples.

Results

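The mitochondrial carrier family, Slc25, was followed in mouse MLL-AF9-Cas9+ leukemia cells transduced with sgSgf29 and in the same cells transduced with sgCtrl. Members were taken as all genes of the count table whose symbol is Slc25a followed by a number, which gave 47 genes of 22155. Messenger RNA was sequenced in 3 sgSgf29 and 3 sgCtrl libraries, and the other samples of the series, which has 14 in all, were of chromatin and were not analysed here. Both groups carry the MLL-AF9 fusion and Cas9, received an sgRNA vector and were selected in puromycin at 2 µg/ml for 3 days. The cells were made by retroviral transformation of mouse bone marrow cells without lineage markers, were passed through irradiated recipient mice and grew in SCF, IL-3 and IL-6, so they model 1 oncogene in culture. Neither the labels nor the methods say whether the 3 libraries of a group came from separate transductions or from different sgRNA sequences, and the p-values therefore measure the spread between these libraries, which may be technical.

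Carriers of this family sit in the inner mitochondrial membrane, which is otherwise closed to charged metabolites, and most of them swap 1 solute of the matrix for another of the cytosol. They let ADP, phosphate, carboxylates, amino acids, nucleotides and cofactors cross, and so connect the citric acid cycle and the respiratory chain to synthesis in the cytosol. In hematopoietic cells the family is best known for the mitoferrins and the glycine carrier, which feed iron and glycine to heme synthesis, and for the citrate carrier, which supplies carbon for lipids. Several carriers come as pairs of close paralogs with unlike tissue distributions.

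Reads assigned to genes numbered 16085601 to 20185751 in the sgSgf29 libraries and 16003990 to 21786618 in the sgCtrl libraries. Sgf29, the targeted gene, fell to 12.6, 13.4 and 17.4 CPM (counts scaled to library size after TMM normalisation) with sgSgf29, against 36.2, 40.4 and 40.4 CPM with sgCtrl, a log2 fold change of -1.43 (SE 0.11, adjusted p = 2.9e-10). Of 10 markers of myeloid leukemia blasts all were detected, with a summed level of 10630 to 11060 CPM in sgSgf29 and 16430 to 17970 CPM in sgCtrl libraries. Most of that sum was Elane, the neutrophil elastase, with a mean of 9302 CPM in sgSgf29 and 14238 CPM in sgCtrl cells, and singly 6 of the 10 were called lower and 3 higher (Ptprc, Meis1 and Itgam). The 13 markers of maturing monocytes, macrophages and neutrophils were also all detected and summed to 22620 to 24250 CPM in sgSgf29 and 8624 to 9017 CPM in sgCtrl libraries. Most of it was S100a8 (7967 CPM in sgSgf29 and 2779 CPM in sgCtrl cells) and S100a9 (13074 CPM in sgSgf29 and 3447 CPM in sgCtrl cells), and singly 9 were called higher, 3 lower (Ly6c2, Ltf and Camp) and 1 not. In bulk RNA, fewer cells of a type and less RNA per cell cannot be told apart, and the part of this shift in the carrier values below was not tested. Markers of other lineages were low: the 7 erythroid markers summed to 1.31 to 1.41 CPM in sgSgf29 and 1.35 to 2.10 CPM in sgCtrl libraries, with Hbb-bs, Hbb-bt, Hba-a1 and Hba-a2 among those at 0. The 4 megakaryocyte markers, Pf4 among them at 0, reached 5.72 to 7.501 CPM in sgSgf29 and 8.37 to 9.66 CPM in sgCtrl libraries. The 4 mast cell markers reached 2.80 to 3.91 CPM in sgSgf29 and 9.44 to 10.1 CPM in sgCtrl libraries, with Cpa3 and Tpsb2 at 0. Lymphoid (B, T and NK) and stromal markers reached at most 0.586 CPM a list in sgSgf29 and 1.27 CPM in sgCtrl libraries.

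The 4 most abundant carriers per kilobase of exon, those of ADP and ATP, phosphate, glutathione and citrate, were lower in sgSgf29 than in sgCtrl cells. Among all genes with a mean of 100 CPM or more, a cut on plain CPM and not per kilobase, 54.7% were lower too. Higher were Slc25a24, 1 of the ATP-Mg carriers, Slc25a12, 1 of the paired aspartate carriers, and the carriers of branched-chain amino acids and acylcarnitine, Slc25a44 and Slc25a20. Of the 47 carriers, 43 had at least 1 read and 39 passed the filter on low counts. At an adjusted p under 0.05 from edgeR's quasi-likelihood test, 12 of the 39 were higher (30.8%) and 15 were lower (38.5%) in sgSgf29 than in sgCtrl cells. Across all genes tested, 69.8% of 11169 genes passed this threshold, 35.4% higher and 34.4% lower, so the family's share of 69.2% was near the background. All sgSgf29 libraries lay above all sgCtrl libraries for 16 carriers (41%, beside 37% of all genes) and below them for 15 (38.5%, beside 35.1% of all genes), and the groups overlapped for 8. The median log2 fold change was -0.05 over the 39 carriers and 0.01 over all genes tested, and its median size without sign was 0.46 over the carriers and 0.42 over all genes. With library size scaling the medians turned to 0.18 for the carriers and 0.24 for all genes. On that scale Slc25a4, Slc25a22, Slc25a25 and Slc25a42 lost their calls and Slc25a13, Slc25a14, Slc25a16, Slc25a40 and Slc25a53 were called higher, so the directions below are relative to TMM scaling. A change of 2-fold or more was reached by 3 carriers that were higher and 1 that was lower, 10.3% of the family beside 14.8% of all genes. Exons of Slc25a10, Slc25a21, Slc25a23, Slc25a25, Slc25a26, Slc25a33, Slc25a35, Slc25a37 and Slc25a46 overlap a gene on the opposite strand and those of Slc25a51 one on the same strand, so their counts are less certain.

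**Figure D1:**
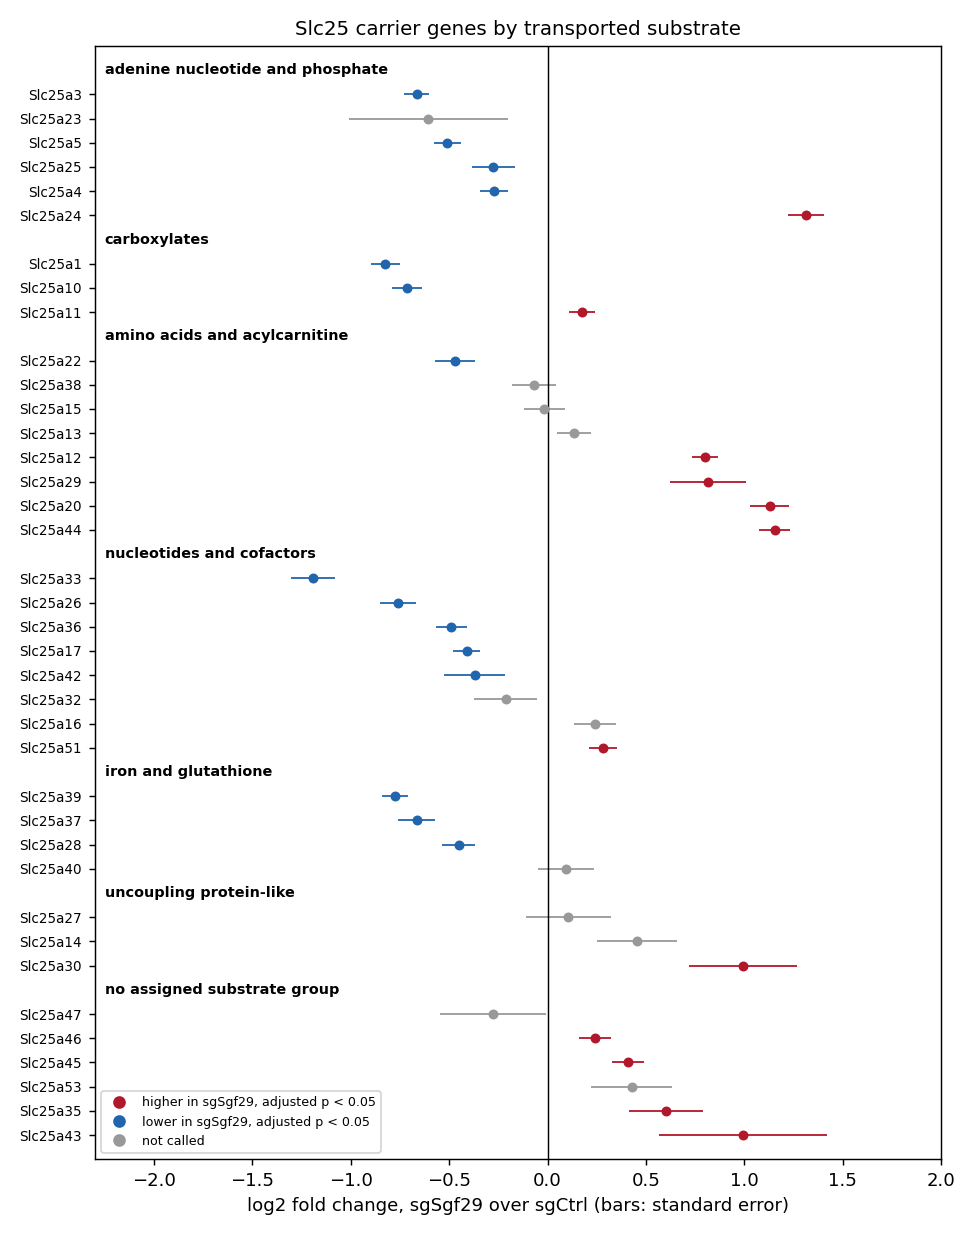
Log2 fold change (horizontal axis, sgSgf29 over sgCtrl, bars SE) of 38 of the 39 tested Slc25 carriers, grouped down the page by what they transport and coloured by whether they were higher, lower or not called. Calls in both directions are seen in the upper 4 groups. In the other groups, which are small, no iron or glutathione carrier was called higher. No carrier that resembles uncoupling proteins or has no substrate group was called lower. Over all genes tested 35.4% were higher and 34.4% lower, and groups this small cannot be read against those shares.

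Promoters are shown for the 3 carriers that fell and hold an E-box there, Slc25a33 with the largest fall among them, and for the carrier with the largest rise. The fallers were picked for the E-box, so the printed set does not compare rise with fall. Carriers not called that hold the letters are named below but not printed. RefSeq's table for GRCm38.p6 held a window for 36 of the 47 members, read here over the 250 bases before the transcription start. The letters CACGTG, the E-box bound by Myc and related factors and the same on both strands, were searched in each window. They occurred in 1978 of 32851 windows of this length (6.02%) and in 8 of the 46 windows of the family, which belong to 7 of the 36 members. Among members with a window these were 3 of the 13 called lower (Slc25a1, Slc25a33 and Slc25a36), none of the 8 called higher, 3 of the 9 not called (Slc25a13, Slc25a14 and Slc25a15) and 1 of the 6 not tested (Slc25a31). The windows of Slc25a14 that hold a match overlap and share the same stretch, which is counted in each of them among the 8. A match is a description of these letters and not a binding site. The sequences run 5′ to 3′ on the gene's strand, capitals mark CACGTG, and Slc25a24 has no match in its window.
Slc25a33, chr4:149774268-149774517, minus strand: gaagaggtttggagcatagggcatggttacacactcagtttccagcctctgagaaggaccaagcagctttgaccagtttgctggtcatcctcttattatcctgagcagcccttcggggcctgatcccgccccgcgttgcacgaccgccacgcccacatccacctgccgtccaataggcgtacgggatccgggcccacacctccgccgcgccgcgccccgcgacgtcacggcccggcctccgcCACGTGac
Slc25a1, chr16:17928220-17928469, minus strand: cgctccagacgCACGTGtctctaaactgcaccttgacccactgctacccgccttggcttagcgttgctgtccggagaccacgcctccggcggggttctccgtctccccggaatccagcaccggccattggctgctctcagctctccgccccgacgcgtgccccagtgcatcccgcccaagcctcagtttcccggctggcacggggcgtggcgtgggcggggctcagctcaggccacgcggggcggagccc
Slc25a36, chr9:97111042-97111291, minus strand: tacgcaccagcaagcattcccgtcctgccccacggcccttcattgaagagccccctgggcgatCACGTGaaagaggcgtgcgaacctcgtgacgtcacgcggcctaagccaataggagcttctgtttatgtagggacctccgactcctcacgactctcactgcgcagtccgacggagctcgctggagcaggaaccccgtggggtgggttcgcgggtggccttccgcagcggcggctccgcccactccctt
Slc25a24, chr3:109122899-109123148, plus strand: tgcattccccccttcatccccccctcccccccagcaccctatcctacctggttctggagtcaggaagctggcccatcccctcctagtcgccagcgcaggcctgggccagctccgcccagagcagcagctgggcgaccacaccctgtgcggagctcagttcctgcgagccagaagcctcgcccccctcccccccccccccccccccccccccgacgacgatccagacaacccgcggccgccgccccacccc

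The carriers of adenine nucleotides and phosphate serve oxidative phosphorylation directly. Of 9 such genes 6 were tested, of which 4 fell, 1 rose and 1 did not pass, with a median log2 fold change of -0.39. Here and in the groups below, such counts stand beside 35.4% higher and 34.4% lower over all genes tested. The groups are small and were set with earlier results of these data known. Slc25a5, the adenine nucleotide translocase that prevails in dividing cells, was the highest carrier per kilobase of exon (346 CPM per kb over all 6 libraries). Its level was 341, 345 and 378 CPM in the sgSgf29 libraries, against 497, 474 and 542 CPM in the sgCtrl libraries. All 3 sgSgf29 libraries were below all sgCtrl libraries, with a log2 fold change of -0.51 (SE 0.07, adjusted p = 1.6e-06), although some of its reads may be shared with its pseudogene Slc25a5-ps. Slc25a3, which imports the phosphate needed for ATP synthesis and was second at 206 CPM per kb, had 315, 303 and 314 CPM with sgSgf29 and 489, 496 and 494 CPM with sgCtrl. The spread within each group was small beside the gap, and the fall gave a log2 fold change of -0.67 (SE 0.06, adjusted p = 6.5e-09). Slc25a4, the translocase of heart and muscle, fell less, to 56.3 ± 1.79 CPM in sgSgf29 cells, against 67.9 ± 4.75 CPM in sgCtrl cells (SD, n = 3 each; log2 fold change -0.27, SE 0.07, adjusted p = 0.0017, not called with library size scaling).

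Slc25a24 is a calcium-regulated carrier that exchanges ATP-Mg for phosphate and so sets the adenine nucleotide pool of the matrix. It lies at chromosome 3 from 109123149 to 109168409 on the plus strand in GRCm38.p6 and measured 35.9, 38.2 and 36.6 CPM in the sgSgf29 libraries, against 13.5, 15.3 and 15.6 CPM in the sgCtrl libraries. No library of one group came near those of the other, and the rise was 2.48-fold, a log2 fold change of 1.31 (SE 0.09, adjusted p = 7.5e-11), the largest among the 39 tested carriers. Slc25a25, its close relative with the same calcium-binding arm, moved the other way, with 11.7 ± 0.242 CPM in sgSgf29 cells, against 14.2 ± 0.981 CPM in sgCtrl cells (log2 fold change -0.27, SE 0.11, adjusted p = 0.034, not called with library size or upper-quartile scaling or without a filter on low counts). That call passed narrowly and was lost when any 1 of sgSgf29 libraries 1, 2 and 3 or sgCtrl libraries 1 and 2 was left out (adjusted p = 0.072, 0.114, 0.067, 0.057 and 0.126 in that order), and the gene that overlaps it is Naif1. The third relative, Slc25a23, was near the filter at 1.64, 1.13 and 0.391 CPM with sgSgf29 and 1.21, 1.14 and 2.25 CPM with sgCtrl, overlapping between groups, with a log2 fold change of -0.61 (95% interval -1.45 to 0.23). The ratio of Slc25a24 to Slc25a25 within a library was 3.15 ± 0.148 in sgSgf29 and 1.05 ± 0.107 in sgCtrl cells (SD, n = 3 each), and the ratio of Slc25a5 to Slc25a4 was 6.29 ± 0.195 in sgSgf29 and 7.43 ± 0.152 in sgCtrl cells. Neither ratio overlapped between groups, which gives 0.1 in a two-sided exact permutation test, the smallest p that 3 libraries against 3 allow. Over the 6 ratios compared here, the adjusted value is 0.12 for each of the 5 whose groups did not overlap and 0.2 for the other. The pairs were chosen with earlier results of these data known, so these p-values are given as a description. The testis translocase Slc25a31 had 5 reads in all, and Slc25a41 and Slc25a54 had none.

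Carboxylate carriers link the citric acid cycle to the cytosol, and of the 3 tested 2 fell and 1 rose, with a median log2 fold change of -0.71. Slc25a1 exports citrate for fatty acid and sterol synthesis, and lies at chromosome 16 from 17925211 to 17928219 on the minus strand. It measured 120.4, 101 and 106 CPM in the sgSgf29 libraries, against 196, 178 and 205 CPM in the sgCtrl libraries. The sgSgf29 libraries were all lower, by 1.77-fold, a log2 fold change of -0.82 (SE 0.07, adjusted p = 4.4e-09). Slc25a10 carries malate and succinate out in exchange for phosphate, and had 34.4, 35.5 and 38.8 CPM with sgSgf29 and 63.9, 59.7 and 55.01 CPM with sgCtrl. Its groups were clearly separate, with a log2 fold change of -0.71 (SE 0.08, adjusted p = 6.0e-08). Slc25a11, the oxoglutarate and malate carrier of the malate-aspartate shuttle, was slightly higher at 102 ± 2.57 CPM in sgSgf29 cells, against 90.1 ± 5.53 CPM in sgCtrl cells (SD, n = 3 each; log2 fold change 0.18, SE 0.07, adjusted p = 0.021). Its call was lost without sgSgf29 library 1 (adjusted p = 0.052), sgCtrl library 1 (0.0501) or sgCtrl library 2 (0.117). Slc25a21, which carries oxodicarboxylates from lysine breakdown, had no read.

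**Figure D2:**
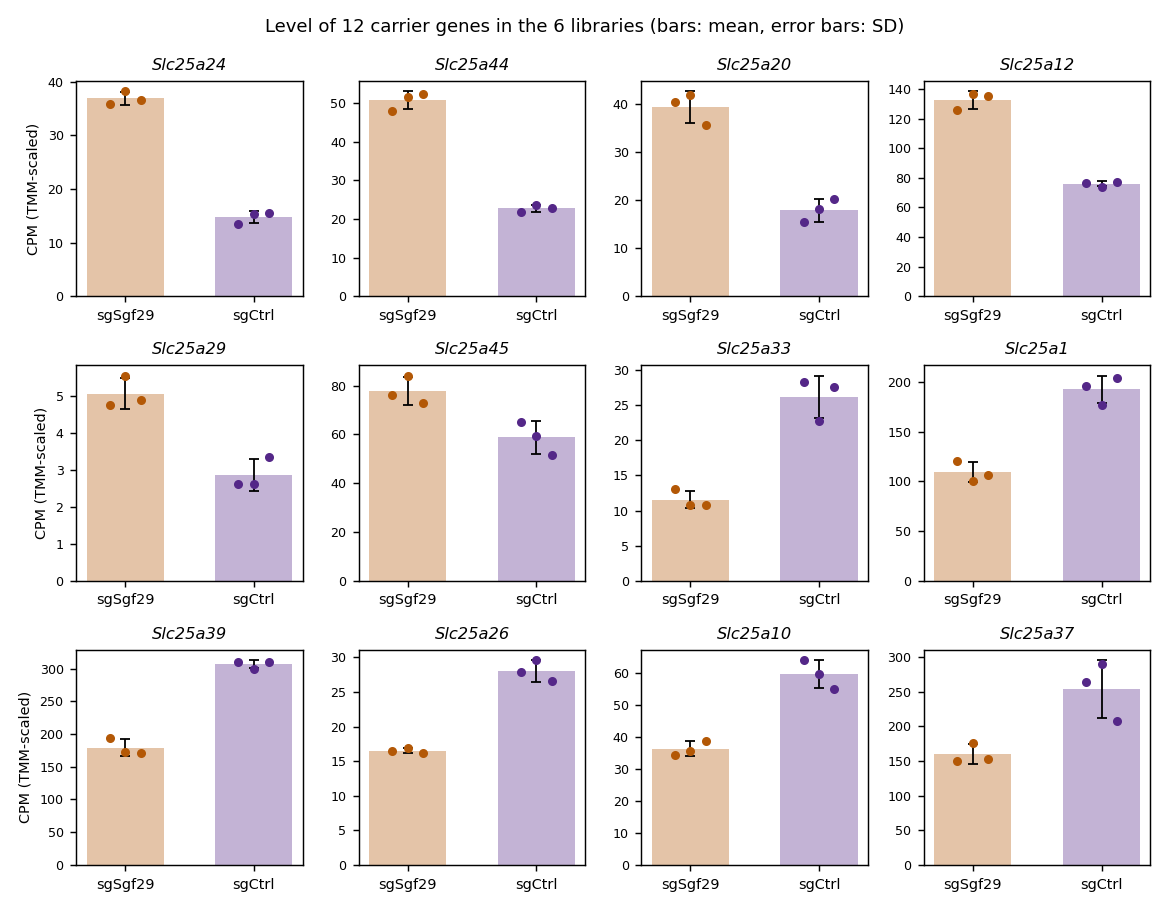
CPM of 12 Slc25 carriers in each of the 6 libraries (points, sgSgf29 left of sgCtrl in each panel, bars the mean and error bars the SD of 3 libraries), on a vertical axis that starts at 0. Slc25a24, Slc25a44 and Slc25a20 lie higher and Slc25a33, Slc25a1 and Slc25a39 lower in all sgSgf29 libraries.

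The carriers of amino acids and of acylcarnitine feed fuel to the matrix and move the products of its amino acid pathways. Of 8 tested, 4 rose, 1 fell and 3 did not pass, with a median log2 fold change of 0.47. Slc25a44 imports branched-chain amino acids for their breakdown in the matrix, and lies at chromosome 3 from 88410494 to 88425141 on the minus strand. It measured 48.05, 51.6 and 52.5 CPM in the sgSgf29 libraries, against 21.9, 23.7 and 22.8 CPM in the sgCtrl libraries. The lowest sgSgf29 library was well above the highest sgCtrl library, and the rise was 2.23-fold, a log2 fold change of 1.15 (SE 0.08, adjusted p = 5.8e-11). Slc25a20, the carnitine-acylcarnitine carrier through which fatty acids reach beta-oxidation, had 40.4, 41.96 and 35.6 CPM with sgSgf29 and 15.4, 18.1 and 20.2 CPM with sgCtrl. Again the groups did not overlap, with a log2 fold change of 1.13 (SE 0.10, adjusted p = 3.4e-09). Slc25a29 carries basic amino acids and was low, at 4.75, 5.54 and 4.89 CPM with sgSgf29 and 2.605, 2.61 and 3.35 CPM with sgCtrl. It was higher in each sgSgf29 library, with a log2 fold change of 0.81 (SE 0.19, adjusted p = 8.8e-04).

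Slc25a12 and Slc25a13 are paralogs that export aspartate for glutamate in the malate-aspartate shuttle, the first known from brain and muscle and the second from liver. Slc25a12 measured 126, 136 and 135 CPM in the sgSgf29 libraries, against 76.8, 74.1 and 77.2 CPM in the sgCtrl libraries, with a log2 fold change of 0.80 (SE 0.06, adjusted p = 6.7e-10). Slc25a13 measured 28.6, 28.3 and 33.3 CPM with sgSgf29 and 27.2, 26.7 and 28.2 CPM with sgCtrl, also with no overlap between groups, but its log2 fold change of 0.14 (95% interval -0.05 to 0.32) did not pass. The ratio of Slc25a12 to Slc25a13 was 4.42 ± 0.378 in sgSgf29 and 2.78 ± 0.0429 in sgCtrl cells (SD, n = 3 each; exact permutation p = 0.1, two-sided). Slc25a22, which carries glutamate with protons, was the 1 that fell in the group. It had 29.2, 31.6 and 27.1 CPM with sgSgf29 and 44.04, 44.9 and 33.3 CPM with sgCtrl, all lower with sgSgf29, with a log2 fold change of -0.47 (SE 0.10, adjusted p = 3.5e-04), though not called with library size scaling. The ornithine carrier of the urea cycle, Slc25a15, did not pass, with a log2 fold change of -0.02 (95% interval -0.24 to 0.20), and neither did Slc25a38, the glycine carrier of heme synthesis (-0.07, 95% interval -0.30 to 0.16). Without sgCtrl library 3, Slc25a38 was called lower (log2 fold change -0.22, adjusted p = 0.041). The second glutamate carrier, Slc25a18, and the second ornithine carrier, Slc25a2, stayed below the filter with 12 and 32 reads in all 6 libraries together.

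**Figure D3:**
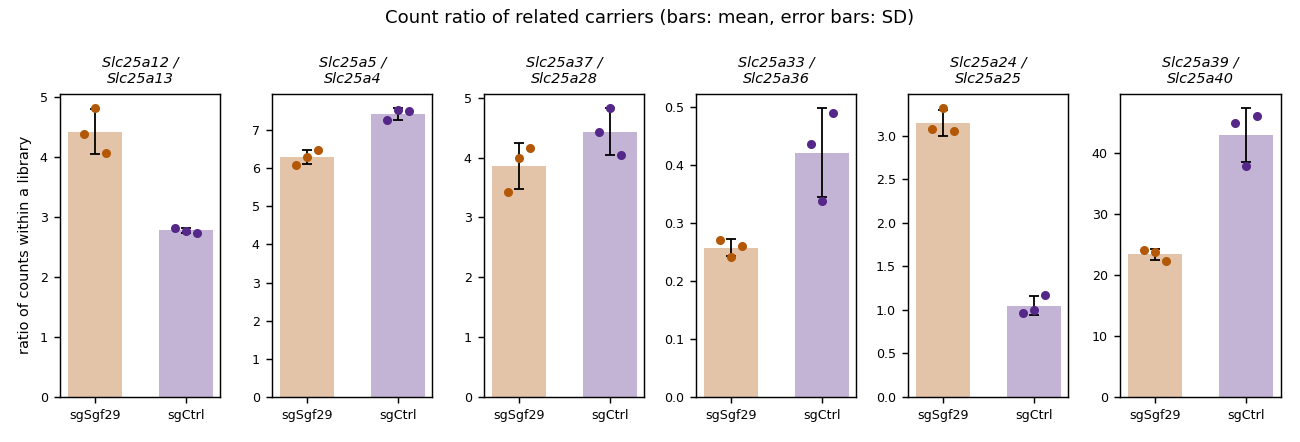
Ratio of the counts of related carriers within each library (vertical axis; points, sgSgf29 left of sgCtrl, bars the mean and error bars the SD of 3 libraries), 1 panel for each of 6 pairs. The groups overlap in the panel of Slc25a37 to Slc25a28 and do not overlap in the other 5.

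Nucleotide and cofactor carriers supply mitochondrial DNA, RNA and enzymes with what they need. Of 9 tested, 5 fell, 1 rose and 3 did not pass, and the median log2 fold change was -0.37. Slc25a33 and Slc25a36 are paralogs that carry pyrimidine nucleotides, and Slc25a33 is known as a growth-factor responsive gene. Slc25a33, at chromosome 4 from 149744036 to 149774267 on the minus strand, measured 13.01, 10.9 and 10.8 CPM in the sgSgf29 libraries, against 28.3, 22.8 and 27.6 CPM in the sgCtrl libraries. The highest sgSgf29 library was well below the lowest sgCtrl library, and the fall was 2.29-fold, a log2 fold change of -1.19 (SE 0.11, adjusted p = 8.1e-09), the largest fall among the 39 tested carriers. Slc25a36 had 48.05, 45.1 and 41.4 CPM with sgSgf29 and 65.1, 67.6 and 56.4 CPM with sgCtrl, lower in each sgSgf29 library, with a log2 fold change of -0.49 (SE 0.08, adjusted p = 1.5e-05). The ratio of Slc25a33 to Slc25a36 was 0.257 ± 0.0152 in sgSgf29 and 0.421 ± 0.0771 in sgCtrl cells (SD, n = 3 each; exact permutation p = 0.1, two-sided). As printed above, both promoters hold the E-box letters, as do those of 3 carriers not called. A relation of the letters to the change was not tested.

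Slc25a26 imports S-adenosylmethionine, the methyl donor for mitochondrial RNA and protein. It measured 16.5, 16.9 and 16.2 CPM in the sgSgf29 libraries, against 27.9, 29.7 and 26.5 CPM in the sgCtrl libraries, and all sgSgf29 libraries lay lower, with a log2 fold change of -0.76 (SE 0.09, adjusted p = 2.9e-07). Slc25a17, a carrier of coenzyme A, FAD and NAD in peroxisomes, fell to 46.2 ± 1.16 CPM in sgSgf29 cells, against 61.4 ± 3.201 CPM in sgCtrl cells (log2 fold change -0.41, SE 0.07, adjusted p = 2.2e-05). The coenzyme A carrier Slc25a42 had 6.31 ± 1.17 CPM in sgSgf29 cells, against 8.201 ± 0.149 CPM in sgCtrl cells (log2 fold change -0.37, SE 0.15, adjusted p = 0.038, not called with library size or upper-quartile scaling or by DESeq2), and its call was lost without any 1 of sgSgf29 libraries 1 and 2 (adjusted p = 0.174 and 0.093) or of sgCtrl libraries 1, 2 and 3 (0.081, 0.055 and 0.064). Slc25a51, the carrier of NAD, was the 1 that rose, with 64.7, 62.97 and 61.9 CPM with sgSgf29 and 50.01, 49.1 and 56.5 CPM with sgCtrl. Its sgSgf29 libraries were all higher, with a log2 fold change of 0.28 (SE 0.07, adjusted p = 0.0015). The folate or FAD carrier Slc25a32 did not pass, with a log2 fold change of -0.21 (95% interval -0.55 to 0.12). Slc25a16, which was placed here with coenzyme A although its substrate is not settled, lay higher in every sgSgf29 library but just missed the threshold (0.24, 95% interval 0.02 to 0.47, adjusted p = 0.051), and passed without sgSgf29 library 1 (adjusted p = 0.035) or sgCtrl library 3 (0.021), with upper-quartile scaling (0.033) or at 1 CPM or more in 3 libraries (0.047).

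Iron and glutathione carriers were 3 lower and 1 not called, with a median log2 fold change of -0.56. Slc25a37 and Slc25a28, mitoferrin-1 and mitoferrin-2, bring iron into the matrix, the first chiefly in erythroid cells. Slc25a37 measured 150.2, 176 and 154 CPM in the sgSgf29 libraries, against 264, 291 and 208 CPM in the sgCtrl libraries, all lower with sgSgf29, with a log2 fold change of -0.67 (SE 0.09, adjusted p = 2.2e-06). Slc25a28 fell to 41.7 ± 4.16 CPM in sgSgf29 cells, against 57.1 ± 4.82 CPM in sgCtrl cells (SD, n = 3 each; log2 fold change -0.45, SE 0.08, adjusted p = 6.7e-05). Their ratio overlapped between groups at 3.86 ± 0.389 in sgSgf29 and 4.43 ± 0.395 in sgCtrl cells (exact permutation p = 0.2, two-sided). Slc25a39 imports glutathione and came next in level after Slc25a5 and Slc25a3, at 144 CPM per kb. It had 194, 173 and 171 CPM with sgSgf29 and 311, 299 and 310.5 CPM with sgCtrl. The sgSgf29 libraries were all lower, with a log2 fold change of -0.78 (SE 0.07, adjusted p = 1.8e-09). Its paralog Slc25a40 did not pass, with a log2 fold change of 0.10 (95% interval -0.20 to 0.39), and the ratio of Slc25a39 to Slc25a40 was 23.4 ± 0.922 in sgSgf29 and 42.9 ± 4.42 in sgCtrl cells (exact permutation p = 0.1, two-sided).

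Of the 3 carriers that resemble uncoupling proteins, Slc25a30 rose and Slc25a14 and Slc25a27 did not pass (median log2 fold change 0.46). Slc25a30 was scarce, at 2.29, 3.25 and 4.25 CPM with sgSgf29 and 1.21, 1.74 and 1.95 CPM with sgCtrl. All sgSgf29 libraries were above all sgCtrl libraries, with a log2 fold change of 0.99 (SE 0.27, adjusted p = 0.0031). Slc25a14 also lay above in each sgSgf29 library but missed the threshold (0.46, 95% interval 0.04 to 0.87, adjusted p = 0.0501), and passed without sgSgf29 library 2 (adjusted p = 0.033), with upper-quartile scaling (0.04) or at 1 CPM or more in 3 libraries (0.048), while Slc25a27 gave 0.11 (95% interval -0.34 to 0.55). Among the 8 carriers that were put in no substrate group, 6 were tested, 4 rose and none fell (median 0.42). Over all genes tested 35.4% were higher and 34.4% lower, and so few carriers cannot be read against those shares. Slc25a45 had 76.2, 84.1 and 72.9 CPM with sgSgf29 and 65.1, 59.3 and 51.7 CPM with sgCtrl, all higher with sgSgf29, with a log2 fold change of 0.41 (SE 0.08, adjusted p = 1.4e-04). Slc25a35 was low at 5.21, 4.82 and 6.01 CPM with sgSgf29 and 3.56, 4.08 and 2.998 CPM with sgCtrl, also without overlap, with a log2 fold change of 0.60 (SE 0.19, adjusted p = 0.0074). Slc25a46, which sits in the outer membrane and takes part in mitochondrial shape and lipid exchange, had 40.5 ± 2.72 CPM in sgSgf29 cells, against 34.2 ± 2.61 CPM in sgCtrl cells (log2 fold change 0.24, SE 0.08, adjusted p = 0.013), a call lost without sgSgf29 library 1 (adjusted p = 0.059) or sgCtrl library 1 (0.072).

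Slc25a43 was called higher by edgeR, but not by DESeq2 (adjusted p = 0.079), on few reads, 0.996, 1.35 and 1.37 CPM with sgSgf29 and 0.762, 0.134 and 0.899 CPM with sgCtrl. The sgCtrl library 2 value rests on 2 reads, and without that library the log2 fold change was 0.57 (adjusted p = 0.201), beside 0.99 (SE 0.42, adjusted p = 0.043) with all 6. Leaving out sgSgf29 library 2, sgSgf29 library 3 or sgCtrl library 1 also ended that call (adjusted p = 0.12, 0.104 and 0.056). Slc25a53 and Slc25a47 did not pass (log2 fold change 0.43, 95% interval -0.0039 to 0.86, and -0.28, 95% interval -0.84 to 0.28), Slc25a34 had 10 reads in all, and Slc25a48 had none.

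Levels of different carriers can be set side by side only per kilobase of exon. Of the 10 highest on that scale, 8 were called lower and 2 higher, and the median level was 31.2 CPM per kb for the carriers called lower and 9.41 CPM per kb for those called higher. Across the 39 tested carriers Spearman's rho between level and log2 fold change was -0.43, beside -0.24 across the 11001 tested genes with a length, which are points of the same 6 libraries and are given as a description. The share of calls among all genes high per kilobase was not taken, and the next cut is on plain CPM, another scale. Among all genes with a mean of 100 CPM or more, 54.7% of 1992 were lower and 27.2% higher, and of the 6 carriers at that level 5 were lower and 1, Slc25a12, was higher. Slc25a11, at rank 5 per kilobase and called higher, lay just under that cut (102 CPM in sgSgf29 and 90.1 CPM in sgCtrl cells).

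**Figure D4:**
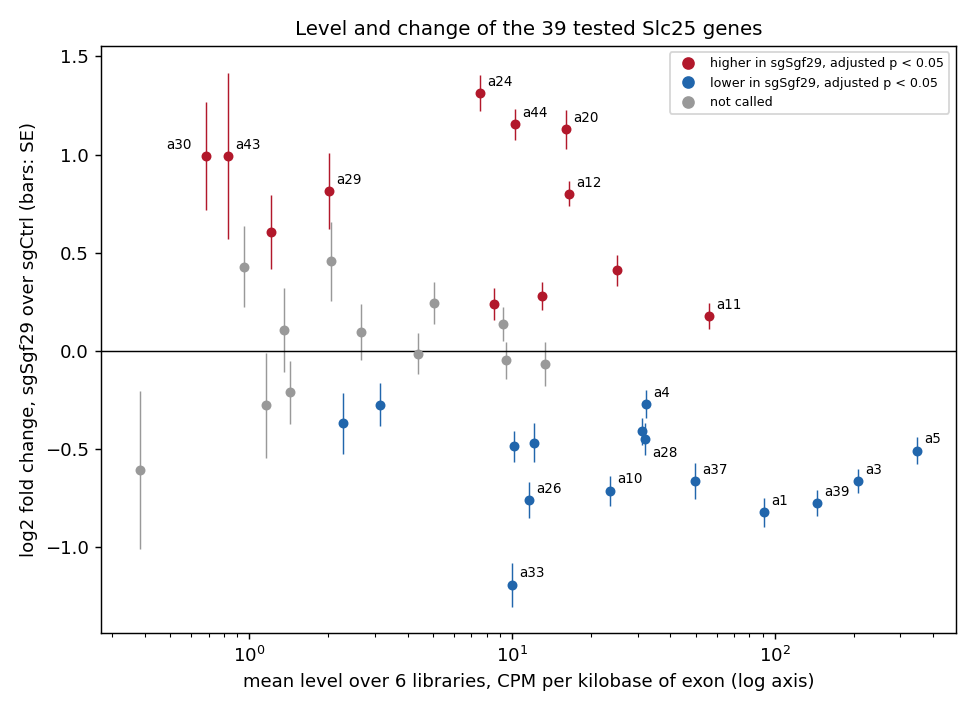
Log2 fold change (vertical axis, sgSgf29 over sgCtrl, bars SE) against mean level over 6 libraries (horizontal log axis, CPM per kilobase of exon) for the 39 tested carriers, coloured by call. Slc25a5, Slc25a3, Slc25a39 and Slc25a1, at 346, 206, 144 and 90.6 CPM per kb, all lie below 0.

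Summed over all 47 genes, the family held 2114 ± 7.18 CPM in sgSgf29 and 2691 ± 13.8 CPM in sgCtrl cells (SD, n = 3 each), without overlap (exact permutation p = 0.1, two-sided). As a plain share of gene counts it was 0.229% ± 0.00344 in sgSgf29 and 0.248% ± 0.00175 in sgCtrl cells (exact permutation p = 0.1, two-sided), so that the ratio of the groups was 0.786 after TMM scaling and 0.922 without it. The 4 highest carriers per kilobase, Slc25a5, Slc25a3, Slc25a39 and Slc25a1, summed to 953.7 ± 27.9 CPM in sgSgf29 and 1497 ± 52.2 CPM in sgCtrl cells. That is 45.1% of the family's CPM in sgSgf29 and 55.6% in sgCtrl cells. These sums and shares are of plain CPM and not per kilobase, so longer transcripts weigh more in them. The other 43 genes summed to 1161 ± 22.3 CPM in sgSgf29 and 1194 ± 52.6 CPM in sgCtrl cells.

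Genes that act beside the carriers were taken from lists of 80 genes, of which 73 were tested, 20 rose and 38 fell, beside 35.4% higher and 34.4% lower over all genes. With library size scaling that balance turned to 29 higher and 25 lower. The counts by list below are with TMM scaling and stand beside the same shares of all genes. Mdh1 stands in 2 of the 8 lists and is counted once here. Of the relatives that carry other names, Ucp2, an uncoupling protein of blood cells, fell to 652 ± 6.36 CPM in sgSgf29 cells, against 811 ± 119 CPM in sgCtrl cells (log2 fold change -0.32, SE 0.08, adjusted p = 0.0021, not called with library size scaling), and Mtch1 and Mtch2, which insert proteins in the outer membrane, gave 0.32, adjusted p = 1.7e-04, and -0.20, adjusted p = 0.013, as log2 fold changes. With library size scaling Mtch2 was at 0.033 and not called. Without sgSgf29 library 2, the call of Mtch2 was lost (adjusted p = 0.124). Ucp3 stayed below the filter with 18 reads and Ucp1 had none. Among 15 tested genes of the machinery that imports carrier proteins, 11 fell, 1 rose and 3 did not pass (median log2 fold change -0.63). Timm9, a small chaperone that escorts carriers across the intermembrane space, had 25.9, 24.4 and 26.2 CPM with sgSgf29 and 60.2, 59.1 and 61.4 CPM with sgCtrl. It was lower in each sgSgf29 library, with a log2 fold change of -1.24 (SE 0.07, adjusted p = 6.2e-12), and the receptor and pore subunits Tomm20 and Tomm5 gave log2 fold changes of -1.02, adjusted p = 1.6e-11, and -1.02, adjusted p = 2.1e-11.

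Of 21 other mitochondrial transport genes 8 rose, 10 fell and 3 did not pass (median log2 fold change -0.30). Vdac1, the main pore of the outer membrane, fell, with 262, 263 and 269.9 CPM with sgSgf29 and 459.9, 469.6 and 486 CPM with sgCtrl (log2 fold change -0.83, SE 0.06, adjusted p = 2.6e-10), the calcium uniporter Mcu also fell (log2 fold change -0.70, SE 0.07, adjusted p = 2.5e-08), and Mpc2, a subunit of the pyruvate carrier, rose (log2 fold change 0.74, SE 0.07, adjusted p = 5.8e-09). The other subunit, Mpc1, fell (log2 fold change -0.43, SE 0.07, adjusted p = 1.3e-05) and is named after its values were seen. In the carnitine shuttle, which delivers the substrate of Slc25a20, 4 of 5 tested genes rose and none fell (median log2 fold change 1.13). Cpt1a, the enzyme that loads fatty acids on carnitine at the outer membrane, had 92.2, 95.2 and 91.9 CPM with sgSgf29 and 39.8, 37.03 and 40.6 CPM with sgCtrl. It was higher in every sgSgf29 library, with a log2 fold change of 1.25 (SE 0.07, adjusted p = 1.7e-12), and Crat, which moves acetyl groups to carnitine, rose as well (log2 fold change 1.14, SE 0.07, adjusted p = 3.2e-11), as did Cpt1c, the paralog of Cpt1a known from brain (log2 fold change 1.13, SE 0.23, adjusted p = 1.8e-04).

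The other lists were mixed. Of the malate-aspartate shuttle enzymes, which work with Slc25a11, Slc25a12 and Slc25a13, Mdh2 and Got1 fell (log2 fold changes of -0.63, adjusted p = 5.0e-08, and -0.48, adjusted p = 1.1e-04) and Mdh1, the cytosolic malate dehydrogenase, rose (0.45, adjusted p = 2.7e-05), so that 3 of 4 were lower (median -0.33). Of 5 tested genes around citrate, its export cycle and the lipid synthesis it feeds, Mdh1 again among them, 2 fell and 2 rose (median log2 fold change -0.04). Acly, the enzyme that splits exported citrate, was the other that rose (0.22, adjusted p = 0.0053) and is named after its values were seen. Acaca, which makes malonyl-CoA for lipids, and Fasn, the fatty acid synthase, were those that fell (-0.58, adjusted p = 5.9e-07, and -0.29, adjusted p = 7.4e-04), Fasn not with library size scaling. Iron and heme genes gave 3 higher, 4 lower and 5 not called of 12 (median 0.05), with Alad, the heme pathway enzyme that makes porphobilinogen, lower (-0.97, adjusted p = 2.1e-09), and with the transferrin receptor Tfrc lower as well (-0.36, adjusted p = 3.4e-05), though not with library size scaling. Among 9 tested mitochondrial one-carbon genes 6 fell and 1 rose (median log2 fold change -0.35, range -0.95 to 1.42). The 1 that rose had the largest change of the list. Shmt2, which splits serine in the matrix, Gcsh of the glycine cleavage system and Mthfd2 gave -0.95, adjusted p = 4.5e-11, -0.79, adjusted p = 9.9e-09, and -0.66, adjusted p = 5.5e-07.

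**Figure D5:**
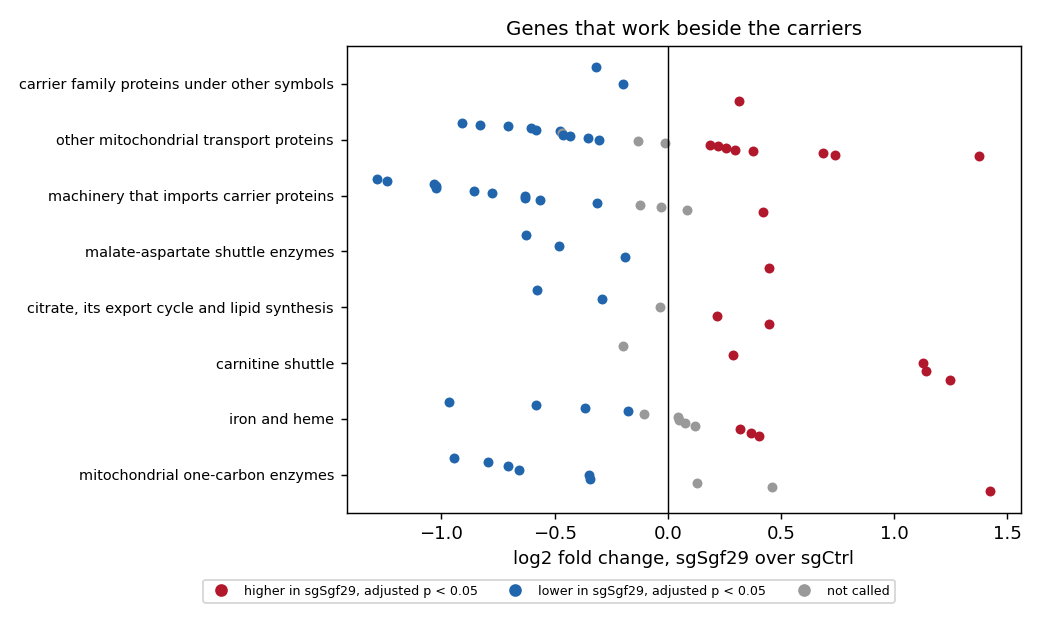
Log2 fold change (horizontal axis, sgSgf29 over sgCtrl) of the 73 tested genes that act beside the carriers, 1 point a gene in each list that holds it (Mdh1 is in 2), in 8 lists down the page and coloured by call. Of the import machinery 11 of 15 genes are lower, and of the carnitine shuttle 4 of 5 are higher. Calls are with TMM scaling, and over all genes tested 34.4% were lower and 35.4% higher.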

How the data were processed

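RNA of 3 sgSgf29 and 3 sgCtrl libraries was used. The authors deposited raw counts per gene of these libraries, merged. Reads were mapped to mm10 with STAR (v2.6.1d by the methods, 2.6.0a by the submitters' processing notes, which give GRCm38) and counted with featureCounts v1.6.4 by the methods, although the table has 5 bookkeeping entries of the htseq-count kind (25.85 to 31.37% of a library), left out here. Which annotation and strand setting were used, and how reads that map more than once were treated, is not given in the sources used here, so values of overlapping genes and of genes with pseudogenes are uncertain. Log2 fold changes are sgSgf29 over sgCtrl, and CPM use TMM-scaled library sizes.

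Of 22155 genes 11169 passed filterByExpr (a count of 10, 15 in total) and entered edgeR 4.0.16 (glmQLFTest), adjusted over all of them (Benjamini-Hochberg, adjusted p under 0.05). SE is the size of the log2 fold change over the root of F. The biological coefficient of variation was 6.61%, and replicates differed by more than sampling noise (4.55 to 15.8 for chi-square over its degrees of freedom). The largest values, 11.3 and 15.8, were those of sgCtrl library 3 against sgCtrl libraries 1 and 2. The sgSgf29 pairs gave 4.77 to 9.67. Lengths are unions of exons in GENCODE vM21, and promoters and coordinates are RefSeq's on GRCm38.p6. The procedure was tested on simulated data in which few genes changed, equally up and down. That test does not cover scaling where most genes change, as here.

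Full values were given for up to 10 called carriers in each direction with the largest change, at least 1 CPM in the higher group and no overlap, and for the 4 highest per kilobase; of each list, for up to 3 called genes with the smallest adjusted p. A few genes, 1 carrier among them, enter the counts but are not reported here by name. The members, lists, role groups and ratios were chosen with earlier results of these data known. Alternatives were scaling by library size, RLE or the upper quartile, TMM factors that ignore ribosomal proteins, limma-voom (version 3.58.1), DESeq2 1.42.0, no filter, at least 1 CPM in 3 libraries, an adjusted p under 0.01, a replicate block and each library left out.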

Additional observations from a re-analysis of the deposited data

How the results depend on the processing

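The 12 higher and 15 lower carriers were the same counts with RLE scaling, TMM without ribosomal protein genes and limma-voom, and became 11 and 14 with DESeq2, 14 and 13 with upper-quartile scaling, 12 and 14 without a filter, 14 and 15 at 1 CPM or more in 3 libraries, and 9 and 13 at an adjusted p under 0.01. Of the 39 carriers 22 kept their direction and side of the threshold under all 16 alternatives. Library size scaling put the median over all genes at 0.24 and over the carriers at 0.18 (log2), gave 17 higher and 11 lower carriers (39.3% of the called lower, beside 55.6% with TMM), 2385 lower genes in all (30.0% of the called, beside 49.3%) and 29 higher and 25 lower genes among the neighbouring lists, beside 20 and 38 with TMM. Under that scaling, with values that include the shift, Slc25a4, Slc25a22, Slc25a25 and Slc25a42 lost their calls (log2 fold changes of -0.04, -0.24, -0.04 and -0.14), and, among genes reported here, signs turned for Slc25a15 (0.22), Slc25a32 (0.021), Slc25a38 (0.16) and Mtch2 (0.033). With upper-quartile scaling Slc25a15 turned to 0.009. With 1 library left out, 9 to 13 carriers were higher and 13 to 15 lower, the median lay between -0.13 and -0.03, and signs turned for 3 of the carriers reported here, none of them called, Slc25a15 (-0.054 to 0.048), Slc25a27 (-0.13 to 0.24) and Slc25a38 (-0.22 to 0.035). Libraries that share a replicate number did not deviate together (correlations 0.005, 0.055 and 0.078), and not every library correlated best with its own number; the replicate block gave 13 higher and 15 lower carriers, adding Slc25a16 (adjusted p = 0.049). Carriers under a few CPM rest on few reads, so their missed calls do not show equal levels.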
